A study of Mus musculus with 12 samples.

Results

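The comparison sets 3T3 fibroblasts given extracellular vesicles (EVs) from CRIPTO-overexpressing donor cells (CrOE) against 3T3 fibroblasts given EVs from CRIPTO-knockdown donor cells (shCr). By their labels these are the opposite ends of donor CRIPTO level in the series. It uses 6 of the 12 libraries, 3 on each side, and 3 more libraries from cells given EVs of control donors (shCon) are placed against these ends. The order of donor CRIPTO, shCr, shCon and CrOE, is that of the labels. By its name shCon is the control of the knockdown, and no group is named as a control of the overexpression. CRIPTO level and construct or donor line therefore cannot be told apart where CrOE is compared with the other groups. Libraries were taken by their labels and not by any measured value. The columns used as CrOE are headed in the table with the protein's name alone, so the name of that group rests on the match of those headings to the remaining samples.

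The recipients were 3T3 cells, an established mouse fibroblast line, and the donors were MDA-MB-468 cells, an established human breast cancer line with epithelial features. EVs are membrane-bound particles that cells release and other cells can take up. The CrOE, shCr and shCon groups each received EVs for 24 h, and a further 3 libraries came from untreated 3T3 cells. In all 12 libraries poly(A) RNA of the recipient line was measured in bulk, and the donor cells, their EVs and the CRIPTO they carried were not analysed here. The labels do not say whether the 3 libraries of a group came from separate cultures, whether donor lines were clones, or what EV dose was given, so p-values measure the spread between these libraries, which may be technical. In bulk RNA, fewer cells that express a gene and less RNA per cell cannot be told apart.

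CRIPTO, encoded by Tdgf1 in the mouse, is a small protein attached to the cell surface that acts as a co-receptor for Nodal, a ligand of the TGF-beta family that signals through activin receptors and SMAD2 and SMAD3. It also binds activin, TGF-beta and GRP78, the endoplasmic reticulum (ER) chaperone encoded by Hspa5, which can reach the cell surface. Fibroblasts make most of the extracellular matrix of a tissue, and their activation near tumours is commonly read from matrix, contractile, protease and chemokine genes.

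Library totals were 28734910 to 37774020 estimated counts in the shCr libraries, 31389839 to 35490290 in the CrOE libraries and 27811383 to 30177901 in the shCon libraries. After genes with low counts were set aside, 14279 of the table's 32544 symbols were tested. Of these, 1247 (8.73%) differed between shCon and shCr EVs, 501 higher (3.51%) and 746 lower (5.22%) with shCon. Between CrOE and shCon EVs 10373 (72.6%) differed, 5218 higher (36.5%) and 5155 lower (36.1%) with CrOE, so the CrOE libraries stood apart from both other EV groups. Within the shCr group, replicate 1 stood apart: its counts differed from those of replicates 2 and 3 with a chi-square per degree of freedom of 45.3 and 65.7, against 10.7 between replicates 2 and 3 and 7.15 to 16.0 within the CrOE group. The total count of calls is given with and without that library. Tdgf1 itself had 0 counts in each CrOE library and 0, 1 and 0 in the shCr libraries, at or under the floor of 3 counts used here, so no difference in the recipients' own Tdgf1 was detectable at this depth.

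Between CrOE and shCr EVs, 10552 of 14279 genes (73.9%) passed a Benjamini-Hochberg adjusted p of 0.05 in the quasi-likelihood test of edgeR, and such genes are referred to as calls. The CPM of the CrOE and shCr libraries did not overlap in 10569 genes (74%). The calls split into 5263 genes higher with CrOE EVs (36.9% of those tested) and 5289 lower (37%). Without shCr replicate 1 there were 11003 calls, 5529 higher and 5474 lower. Because so large a share of all genes was called, a call on its own sets a gene little apart, and sizes are given throughout as log2 fold changes of CrOE minus shCr with standard errors (SE). A difference of at least 2-fold was reached by 4223 calls (29.6% of genes tested), of which 1565 were higher (11%) and 2658 lower (18.6%). Falls were more numerous than rises from 4-fold to 16-fold (937 lower, 290 higher) and from 16-fold to 256-fold (296 lower, 74 higher), but not from 256-fold upward (10 lower, 11 higher). The median log2 fold change over all tested genes was 0.00761, with an SD of 1.43, where shCon minus shCr had an SD of 0.37. Scaling libraries to a common size tends to centre this median and balance the calls, so a shift in total RNA would not be seen.

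Genes that handle protein folding in the ER made up the largest rises among well-expressed genes. All 27 tested members of the ER folding and degradation list were higher with CrOE EVs (all genes tested: 36.9%). Their median log2 fold change was 2.47 beside 0.00761 over all genes, and 25 of them rose at least 2-fold (all genes tested: 11%). Without shCr replicate 1, 26 of the 27 were calls. Levels are given as CPM, counts scaled to a common library size with TMM factors. The 8 largest rises were taken among well-expressed calls (mean log2 CPM over all libraries of 4 or more) without overlap between CrOE and shCr libraries. They were Sdf2l1, Hyou1, Hspa5, Pdia4, Creld2, Hsp90b1, Ero1lb and Manf, and each encodes a protein of the ER lumen or its redox machinery. When unfolded proteins build up in the ER, the sensors encoded by Ern1 and Atf6 and a kinase sensor switch on such genes, a response known as the unfolded protein response.

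Hspa5 encodes GRP78, the main ER chaperone. It stood at 11701, 12092 and 11400 CPM in the CrOE libraries, 705, 579.6 and 593 in the shCr libraries and 611, 602 and 599 in the shCon libraries (log2 fold change 4.23, SE 0.075, adjusted p = 1.29e-13). Every CrOE library was far above all other EV libraries, and the shCon libraries lay inside the range of the shCr libraries. Hyou1, a partner chaperone of GRP78, was at 3055, 3172 and 3032 CPM with CrOE EVs and 127, 132 and 129 with shCr EVs (log2 fold change 4.58, SE 0.05, adjusted p = 1.02e-14). Sdf2l1, a component of an ER chaperone complex, rose from 17.98, 12.9 and 12.3 CPM to 372, 400.1 and 373 (log2 fold change 4.73, SE 0.12, adjusted p = 2.18e-12), the largest rise of the 8. Hsp90b1, the ER member of the HSP90 family, rose from 608, 519.5 and 539 to 7329, 7766 and 7397 CPM (log2 fold change 3.75). As top rises these genes were picked for no overlap between the CrOE and shCr libraries, so that separation was set by the rule.

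The other members rose too. Creld2, an ER protein whose transcript is a common marker of the response, rose by 4.11 on the log2 scale and Manf, a secreted ER stress protein, by 3.70. The protein disulfide isomerase Pdia4 rose by 4.17. Herpud1, part of the machinery that sends misfolded proteins to degradation, rose by 3.03 (SE 0.049). Among the sensors and transcription factors, Xbp1 went from 55.9, 52.3 and 51.6 to 184, 181 and 189.5 CPM (log2 fold change 1.80, SE 0.067, adjusted p = 5.83e-11), Atf6 rose by 1.39 and Ern1 by 1.28. Exons of Hsp90b1, Manf, Hspd1 and Cryab overlap genes on the opposite strand, and whether counting used the strand is not given in the sources used here. Heat-shock proteins outside the ER moved in both directions, with 9 of 17 higher and 5 lower (all genes tested: 36.9% and 37%). Their median was 0.15. Among them, Hspd1, the mitochondrial chaperone, rose by 1.36, while Hspa8, the constitutive cytosolic HSP70, fell from 1787, 1554 and 1548 to 961, 991 and 988 CPM and Cryab, a small heat-shock protein, fell by 2.71 on the log2 scale. Hspd1 and Hspa8 share 50.1% and 43.5% of their 31-base stretches with other genes, so their counts are uncertain.

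**Figure D1:**
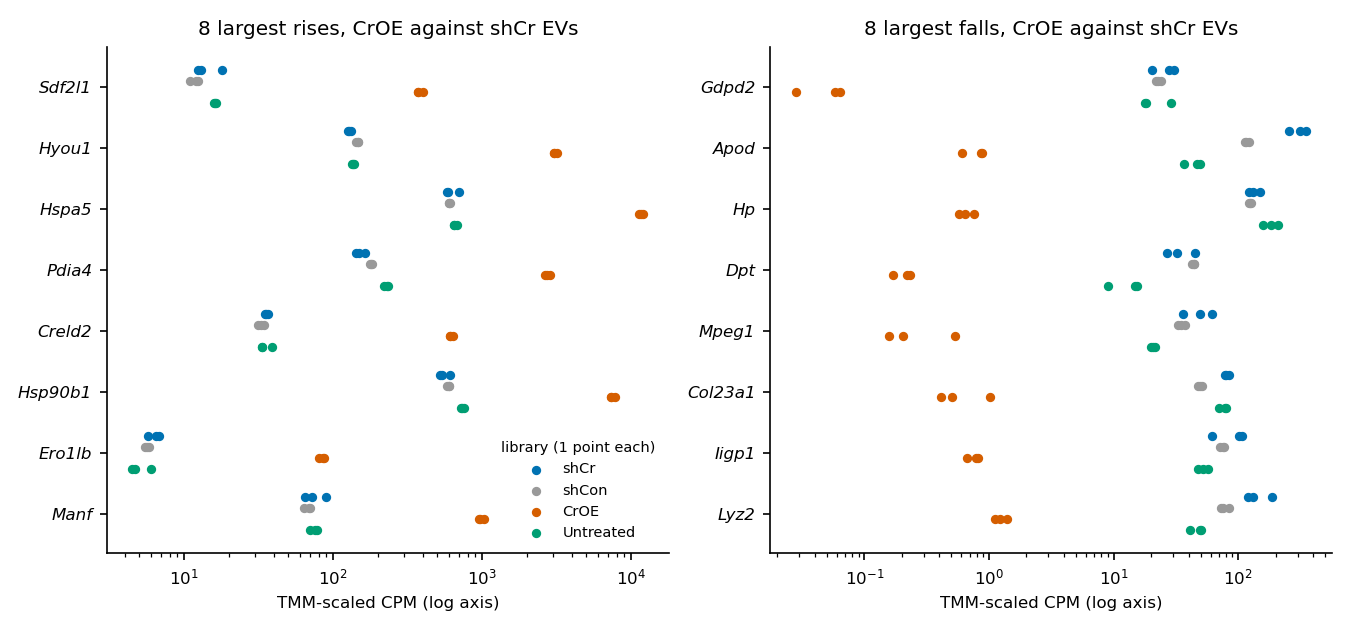
TMM-scaled CPM in each of the 12 libraries (log axis) for the 8 largest rises and the 8 largest falls between CrOE and shCr EVs among well-expressed calls; each point is 1 library, coloured by group. The 16 genes were picked for no overlap between CrOE and shCr libraries, so that separation was set by the rule. The shCon points lie nearer to the shCr than to the CrOE points, as in Hspa5 with 611, 602 and 599 CPM against 705, 579.6 and 593 with shCr EVs.

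The 250 bases before the annotated start of the ER genes were searched because genes of the unfolded protein response are known to carry an ER stress element, which is CCAAT, 9 bases of any kind and CCACG. Both strands were searched. Of the 27 tested members, 22 matched an entry in the RefSeq promoter table, and 9 of those (40.9%) held the element, against 35 of 27025 genes in that table (0.13%). The shorter element TGACGTGG, also tied to the response, was in none of the 22 and in 0.603% of all promoters. The motifs were picked after an exploratory search of the promoters, and a match describes letters, not binding. Coordinates are those of the RefSeq build GRCm38.p6, while the submitters' processing notes name mm39 for the counts. The promoters of Hspa5 (chr2:34771840-34772089, plus strand) and Creld2 (chr15:88819396-88819645, plus strand) are shown 5′ to 3′ with the element in capitals; in Creld2 it lies on the opposite strand, and it begins 65 bases before the start in Hspa5 and 126 in Creld2.
Hspa5: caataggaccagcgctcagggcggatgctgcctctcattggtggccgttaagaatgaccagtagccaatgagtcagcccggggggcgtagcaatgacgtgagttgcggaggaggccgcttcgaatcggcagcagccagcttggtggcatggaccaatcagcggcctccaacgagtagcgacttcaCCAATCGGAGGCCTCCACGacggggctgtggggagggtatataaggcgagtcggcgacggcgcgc
Creld2: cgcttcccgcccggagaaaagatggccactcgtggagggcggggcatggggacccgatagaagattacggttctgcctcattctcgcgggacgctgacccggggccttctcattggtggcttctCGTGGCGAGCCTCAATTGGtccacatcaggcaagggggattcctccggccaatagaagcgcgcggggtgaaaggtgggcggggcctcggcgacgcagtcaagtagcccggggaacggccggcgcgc

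Genes of the ATF4 branch and of amino acid supply were higher with CrOE EVs as well. ATF4 is a transcription factor made when translation is slowed by ER stress or amino acid shortage, and its targets serve amino acid import, synthesis and redox balance. Of 29 tested list members, 27 were higher and 1 was lower (all genes tested: 36.9% and 37%). Their median log2 fold change was 1.19, and 16 rose at least 2-fold (all genes tested: 11%). The transcript of Atf4 itself rose from 505, 467 and 475 CPM with shCr EVs to 776, 804 and 792 with CrOE EVs (log2 fold change 0.71, SE 0.06, adjusted p = 1.74e-07). Several of the factor's known targets rose more than its own transcript: Ddit3, which encodes CHOP, went from 63.8, 64.97 and 74.7 to 341, 359.6 and 368 CPM (log2 fold change 2.39, SE 0.083, adjusted p = 3e-11). Ppp1r15a, encoding a phosphatase subunit that restores translation, went from 40.1, 42.99 and 45.3 to 472, 498 and 494 CPM (log2 fold change 3.51, SE 0.081, adjusted p = 1.05e-12), the largest rise of the list. Slc3a2, the heavy chain of several amino acid transporters, rose from 294, 296 and 318 to 2450, 2693 and 2656 CPM (log2 fold change 3.10). In each of these genes all CrOE libraries lay above all shCr libraries, though the 2 groups did not overlap in 74% of all genes tested. The member called lower was Atf5, at 366, 401 and 450.4 CPM with shCr EVs and 314, 322 and 339 with CrOE EVs (log2 fold change -0.32), and this was no call without shCr replicate 3 (adjusted p = 0.0616, edgeR). Exons of Ddit3, Ppp1r15a and Atf5 overlap genes on the opposite strand.

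Among the enzymes that charge tRNAs in the cytosol, 19 of 20 were higher (all genes tested: 36.9%), with a median of 0.93. At least 2-fold rises were seen in 9 (all genes tested: 11%). Wars, the enzyme for tryptophan, rose most, from 63.98, 71.2 and 77.4 to 342, 363 and 346 CPM (log2 fold change 2.30, SE 0.08, adjusted p = 3.04e-11), and Sars, the enzyme for serine, went from 508, 508 and 526 to 776, 802 and 812 (log2 fold change 0.63). The member that was not called was Mars, the enzyme for methionine (log2 fold change -0.094), whose exons overlap a gene on the opposite strand. Without shCr replicate 1, 1 member was called lower. The element TGATGNAA, known from ATF4 target promoters, was in 7 of 25 matched ATF4 list promoters (28.0%) and 3 of 12 of the tRNA enzymes (25%), against 3.91% of all promoters. Asns, which encodes asparagine synthetase and rose by 0.95 (CPM of 174, 159 and 172 with shCr and 324, 328 and 323 with CrOE EVs), is shown as the textbook case (chr6:7693210-7693459, minus strand, GRCm38.p6). The element in capitals begins 23 bases before its start.
Asns: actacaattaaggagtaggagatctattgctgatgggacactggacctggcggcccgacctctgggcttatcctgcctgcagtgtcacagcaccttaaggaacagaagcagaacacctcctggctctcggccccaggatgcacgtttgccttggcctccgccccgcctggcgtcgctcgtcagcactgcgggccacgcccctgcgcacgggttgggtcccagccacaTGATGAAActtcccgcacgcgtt

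Interferon-stimulated genes had the lowest median of the 24 gene lists described here. Interferons act on cells through surface receptors to induce antiviral proteins and the antigen-presenting machinery. Of 32 tested interferon-stimulated genes, 31 were lower with CrOE EVs, 30 of them at least 2-fold (all genes tested: 37% and 18.6%). The median log2 fold change was -3.66. Ifit3, encoding an antiviral RNA-response protein, was at 1015, 744 and 1105 CPM in the shCr libraries, 697, 799 and 782 in the shCon libraries and 8.50, 10.97 and 12.7 in the CrOE libraries (log2 fold change -6.47, SE 0.2, adjusted p = 9.44e-12). The shCon and shCr ranges overlapped, and the CrOE libraries lay below both by a wide margin. Its sequence is shared with Ifit3b over 61.8% of its 31-base stretches, and Ifit3b fell likewise (log2 fold change -6.67), so counts of this pair can be split between them. Ifit1 fell from 530, 383 and 559.8 to 26.8, 28.5 and 31.3 CPM (log2 fold change -4.09) and Isg15, a ubiquitin-like modifier, from 243, 170.5 and 232 to 16.7, 20.5 and 23.7 (log2 fold change -3.41, SE 0.15, adjusted p = 3.22e-10). Irf7, a transcription factor that amplifies the response, fell from 141, 127 and 179 to 4.95, 6.28 and 7.10 CPM (log2 fold change -4.60, SE 0.18, adjusted p = 7.85e-11). Ifi27 was the member that rose, from 49.6, 49.4 and 38.9 to 73.4, 81.5 and 79.97 CPM (log2 fold change 0.77, SE 0.083, adjusted p = 2.12e-06). Exons of Irf7 overlap a gene on the opposite strand.

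All 13 tested genes of MHC class I presentation were lower, 12 of them at least 2-fold (all genes tested: 37% and 18.6%). Their median was -2.08. Psmb9, a subunit of the immunoproteasome that cuts peptides for presentation, fell from 14.9, 11.3 and 14.1 to 0.0634, 0.378 and 0.168 CPM (log2 fold change -6.0, SE 0.27, adjusted p = 3.53e-10), the largest fall of the list. Tap1, one chain of the peptide transporter, fell from 99.7, 101 and 132 to 13, 14.9 and 16.9 CPM (log2 fold change -2.89). B2m, the light chain of the class I molecule, fell from 1853, 1455 and 1597 to 548, 651 and 642 CPM (log2 fold change -1.41, SE 0.086, adjusted p = 6.97e-09), and the class I heavy chain H2-D1 from 778, 683 and 765 to 319, 394 and 394 (log2 fold change -1.01). These are smaller falls than that of Psmb9. No CrOE library reached the lowest shCr library in any of the 4 genes, but such separation was seen in 74% of all genes tested. Exons of Psmb9 and Tap1 overlap genes on the opposite strand. H2-D1 belongs to a family with near-identical copies, sharing 26.7% of its 31-base stretches with other genes. Among the 8 largest falls of the comparison was also Iigp1, an interferon-inducible GTPase, at 108, 61.3 and 101 CPM with shCr and 0.666, 0.815 and 0.786 with CrOE EVs (log2 fold change -6.89).

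The core of interferon response elements, GAAA, 2 bases of any kind and GAAA, were in 11 of 23 matched promoters of the interferon list (47.8%) and 1 of 11 of the class I list, that of B2m, against 3.46% of all promoters. Ifit3 (chr19:34583279-34583528, plus strand) holds 2 matches, both on the opposite strand, that begin 156 and 122 bases before its start. Isg15 (chr4:156200819-156201068, minus strand) holds 3 overlapping matches that begin 78 to 66 bases before its start. Both are shown on GRCm38.p6 with the matches in capitals.
Ifit3: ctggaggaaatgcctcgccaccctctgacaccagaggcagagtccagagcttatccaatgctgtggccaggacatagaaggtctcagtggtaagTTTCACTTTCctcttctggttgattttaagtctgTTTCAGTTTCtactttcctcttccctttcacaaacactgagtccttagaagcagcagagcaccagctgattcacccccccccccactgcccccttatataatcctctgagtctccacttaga
Isg15: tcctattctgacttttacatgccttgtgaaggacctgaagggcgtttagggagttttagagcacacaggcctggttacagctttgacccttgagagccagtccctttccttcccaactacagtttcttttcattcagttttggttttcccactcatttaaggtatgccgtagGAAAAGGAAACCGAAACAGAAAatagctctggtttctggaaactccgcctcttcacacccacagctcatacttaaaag

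Cholesterol synthesis was lower throughout its pathway. SREBP2, encoded by Srebf2, normally drives these enzymes together when ER cholesterol is low. All 25 tested members of the cholesterol synthesis and uptake list fell at least 2-fold (all genes tested: 18.6%), with a median of -2.28. Hmgcs1, an early enzyme of the pathway, fell from 952, 856 and 850.4 to 157, 182 and 169.8 CPM (log2 fold change -2.39, SE 0.069, adjusted p = 6.53e-12), with the shCon libraries at 848, 856 and 882. Srebf2 fell from 704, 818 and 807 to 294, 321 and 310.2 CPM (log2 fold change -1.33), with the shCon libraries at 714, 751 and 751. In both genes the shCon libraries lay at the shCr level. The largest fall was that of Tm7sf2, a late-step reductase, from 184, 184 and 186 to 7.71, 7.19 and 8.99 CPM (log2 fold change -4.53, SE 0.09, adjusted p = 3.38e-13), and here the shCon libraries, at 119.6, 126 and 131 CPM, lay apart from both ends. The sterol element, ATCAC followed directly by CCCAC, was in none of the 17 matched promoters and in 0.0814% of all promoters. Exons of Hmgcs1 overlap a gene on the opposite strand.

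Genes of fatty acid synthesis and lipid storage were mostly lower too, with 10 of 12 tested members lower and 1 higher. Over all genes tested the shares were 37% and 36.9%, and the list median was -1.80. Lpl, lipoprotein lipase, fell from 205, 159 and 156 to 5.36, 5.96 and 6.43 CPM (log2 fold change -4.87, SE 0.13, adjusted p = 3.7e-12). Fasn, fatty acid synthase, fell from 1432, 1831 and 1750 to 763, 740.1 and 748 CPM (log2 fold change -1.16) and Scd2, a fatty acid desaturase, from 3112, 3107 and 2935 to 978, 1068 and 1018 (log2 fold change -1.58). Plin2, which coats lipid droplets, was the member that rose, from 177, 172 and 173 to 219, 241 and 219 CPM (log2 fold change 0.38).

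**Figure D2:**
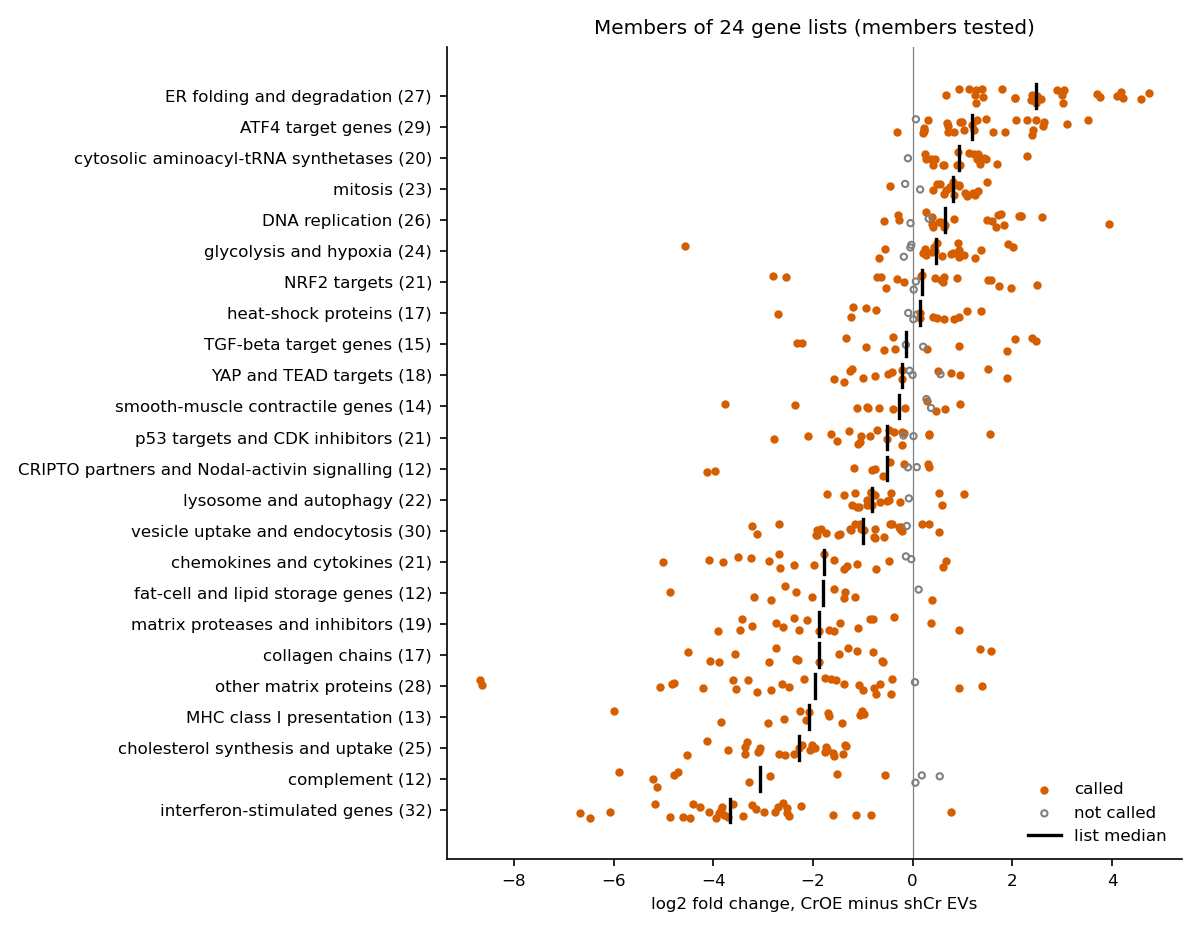
Log2 fold change of CrOE minus shCr EVs for each tested member of 24 gene lists, with the number of members tested in parentheses; filled points are calls, open points are not, and the black bar is the list median. Medians run from 2.47 for ER folding and degradation to -3.66 for interferon-stimulated genes, beside 0.00761 over all genes tested.

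Matrix genes fell in most cases, but not uniformly. Of 17 tested collagen chains, 15 were lower and 2 higher (median -1.88). Of 28 other matrix proteins, 25 were lower and 2 higher (median -1.96), beside 37% and 36.9% of all genes tested. Col6a1, a chain of the beaded-filament collagen VI, fell from 671, 867 and 868 to 34, 33.5 and 38.8 CPM (log2 fold change -4.50, SE 0.1, adjusted p = 1.07e-12), the largest fall among collagens, with Col6a2 and Col6a3 at -4.06 and -3.88. Col1a1, a chain of collagen I, the main fibrillar collagen, was at 2891, 3908 and 3796 CPM with shCr EVs and 694, 732 and 737 with CrOE EVs (log2 fold change -2.29, SE 0.095, adjusted p = 1.66e-10). Its partner chain Col1a2 fell less, from 3217, 3639 and 3431 to 2201, 2277 and 2209 CPM (log2 fold change -0.62). In both chains of collagen I every CrOE library lay below every shCr library, while CrOE and shCr libraries did not overlap in 74% of all genes tested. Col5a2, a chain of the fibril-regulating collagen V, went the other way, from 712, 841 and 812 to 2230, 2331 and 2468 CPM (log2 fold change 1.57, SE 0.067, adjusted p = 2.06e-10), while Col5a1 fell by 1.12 on the log2 scale, with exons that overlap a gene on the opposite strand. Col14a1 also rose (log2 fold change 1.35), but it was not tested when at least 10 counts were required in every library.

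Small leucine-rich proteoglycans, which organise collagen fibrils, included very large falls. Prelp had 4 counts in all CrOE libraries together against 1749 in the shCr libraries, a ratio 456-fold lower (95% interval 178 to 1676, counting error only). Lum, lumican, had 1 count against 536 (559-fold lower, 95% interval 99.9 to 22126). Both rest on few counts at the CrOE end, so the size of these falls is uncertain while their direction held in every library. Bgn, biglycan, fell far less, from 2226, 2501 and 2467 to 1640, 1874 and 1825 CPM (log2 fold change -0.43). Aspn, asporin, rose from 6.34, 3.27 and 2.60 to 10.4, 9.75 and 11.4 CPM (log2 fold change 1.39, SE 0.32, adjusted p = 0.00164). Postn, periostin, a matrix protein of activated fibroblasts, fell from 626, 580.1 and 518 to 28.7, 32.7 and 32.2 CPM (log2 fold change -4.20, SE 0.096, adjusted p = 1.02e-12). Fn1, fibronectin, was not called, at 3245, 3720 and 3947 CPM with shCr and 3730, 3896 and 3654 with CrOE EVs (log2 fold change 0.048, SE 0.073, adjusted p = 0.571), with its shCon libraries well above both at 7312, 7281 and 7118. Exons of Prelp, Aspn and Fn1 overlap genes on the opposite strand.

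Matrix-cutting enzymes and their inhibitors followed, with 17 of 19 lower and 2 higher (all genes tested: 37% and 36.9%) and a median of -1.87. Mmp2, gelatinase A, fell from 1895, 2040 and 1932 to 172, 189.7 and 188 CPM (log2 fold change -3.42, SE 0.057, adjusted p = 9.1e-14), and its inhibitor Timp2 from 1356, 1354 and 1331 to 139, 150.3 and 143 (log2 fold change -3.22). Plau, the urokinase plasminogen activator, fell from 21.3, 18.6 and 14.7 to 0.825, 1.45 and 1.29 CPM (log2 fold change -3.91). The rise of the collagenase Mmp13 (log2 fold change 0.36) was no call without shCr replicate 2, shCr replicate 3 or CrOE replicate 2 (adjusted p = 0.0599, 0.0711 and 0.0711, edgeR), or in a fit of only the groups compared (0.0534). Contractile genes of smooth muscle and myofibroblasts were divided, with 4 of 14 higher and 8 lower (all genes tested: 36.9% and 37%). Their median was -0.27. The rise of Cnn1 (41 counts with CrOE against 20 with shCr EVs) and the small fall of Cald1 were no calls in several alternatives. With no low-count filter their adjusted p was 0.0645 and 0.0574 (edgeR). Mylk, the kinase that activates smooth muscle myosin, fell by 3.76 on the log2 scale and Tagln fell from 78.2, 73.1 and 74 to 58.01, 54.6 and 59.1 CPM (log2 fold change -0.39), while Acta2, smooth muscle actin, rose from 377, 415 and 448 to 491, 502 and 526 (log2 fold change 0.29, SE 0.061, adjusted p = 0.00074). Exons of Mylk and Tagln overlap genes on the opposite strand.

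The fall of matrix genes came with a fall of the fibroblast markers themselves. All 9 fibroblast markers were lower (all genes tested: 37%), with a median of -1.96. Their summed level was 1774 to 1884 CPM in the CrOE libraries against 5659 to 5789 in the shCr libraries and 4958 to 5021 in the shCon libraries. Pdgfra, the PDGF receptor that marks fibroblasts, went from 843, 803 and 760.2 to 122, 128 and 113 CPM (log2 fold change -2.73), Thy1 from 241, 249.8 and 241 to 74.98, 83.5 and 83.8 (log2 fold change -1.60) and Vim, vimentin, from 2566, 2783 and 2779 to 1104, 1169 and 1124 (log2 fold change -1.26). All 3 remained well detected in the CrOE libraries, while Lum fell to the floor. Whether the cells kept their fibroblast identity was not tested. Exons of Pdgfra overlap a gene on the opposite strand. The part of this marker shift in the matrix results was not tested.

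Markers of other cell types were low on both sides, with 1 exception. The 14 epithelial markers, of the lineage of the donor line, summed to 3.11 to 3.90 CPM with CrOE and 1.48 to 1.79 CPM with shCr EVs. Epcam had 0 counts in all libraries, and Cldn4, a tight-junction claudin, had 116 counts in the CrOE libraries against 3 (37.1-fold higher, 95% interval 12.4 to 182). The 7 endothelial markers summed to 17.4 to 20.2 CPM with CrOE and 4.23 to 5.57 with shCr EVs, mostly through Vwf, while Cldn5 was at 0. The 10 macrophage markers summed to 5.35 to 7.17 CPM with CrOE and 130 to 193.5 with shCr EVs. Of the 5 tested, 3 were lower, 1 was higher and 1 was not called (all genes tested: 37% lower and 36.9% higher). The difference in the sum was nearly all Lyz2, the lysozyme of phagocytes, at 186, 132 and 121 CPM with shCr and 1.40, 1.22 and 1.12 with CrOE EVs (log2 fold change -6.87, SE 0.2, adjusted p = 6.59e-12), since C1qa and C1qb had 0 counts in every library and Ptprc and Adgre1 at most 5 in an EV-treated library of either end. Mpeg1, a macrophage-expressed gene that is not on the list, fell as well (log2 fold change -7.31). The member called higher was Fcgr1, at 0.825, 0.640 and 0.730 CPM with CrOE and 0.282, 0.192 and 0.451 with shCr EVs, which was no call without shCr replicate 2 or CrOE replicate 1 (adjusted p = 0.0858 and 0.061, edgeR). Lyz2 shares 32.8% of its 31-base stretches with other genes. The 6 skeletal muscle markers summed to at most 1.06 CPM. The part of these markers in the results was not tested.

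Secreted signals of the inflammatory kind were mostly lower. Of 21 tested chemokines and cytokines, 17 were lower and 2 higher (all genes tested: 37% and 36.9%), with a median of -1.79. Ccl8, a monocyte-attracting chemokine, fell from 93.1, 62.8 and 60.1 to 2.32, 2.44 and 1.97 CPM (log2 fold change -5.0, SE 0.19, adjusted p = 6.88e-11). Cxcl12, the stromal chemokine that binds CXCR4, fell from 805, 735 and 713 to 92.4, 103 and 109 CPM (log2 fold change -2.89, SE 0.075, adjusted p = 2.58e-12), and Cxcl5, which draws neutrophils, from 1002, 746 and 734 to 119, 145 and 131 (log2 fold change -2.65). The rises were those of Ccl20 and Il11 (log2 fold changes 0.60 and 0.67). Only 1 of them remained a call with DESeq2 or without shCr replicate 2 or 3 or any 1 CrOE replicate, and not the same gene each time. The call of Il11 was lost without shCr replicate 3 or CrOE replicate 1 (adjusted p = 0.05 and 0.0507, edgeR). Complement genes fell in 9 of 12 cases (all genes tested: 37%), with a median of -3.07 and 3 not called. C3, the central complement protein, fell from 2798, 3041 and 2910 to 257, 330.3 and 314 CPM (log2 fold change -3.28, SE 0.087, adjusted p = 3.1e-12), and C1s1, a protease of the classical pathway, from 1102, 1050 and 1061 to 23.6, 31.9 and 31.9 (log2 fold change -5.20). C1s1 shares 33.5% of its 31-base stretches with other genes, and its exons overlap a gene on the opposite strand.

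The remaining genes among the 8 largest falls were secreted or membrane proteins. Apod, apolipoprotein D, a lipid carrier, was at 353, 255 and 314 CPM with shCr EVs, 113, 123 and 115 with shCon EVs and 0.603, 0.873 and 0.870 with CrOE EVs (log2 fold change -8.60, SE 0.19, adjusted p = 7.87e-13). Its shCon libraries lay below every shCr library and above every CrOE library, and in 22.5% of all calls shCon lay between the ends without overlap. Hp, haptoglobin, an acute-phase protein, fell from 148, 133 and 121 to 0.571, 0.640 and 0.758 CPM (log2 fold change -7.66, SE 0.15, adjusted p = 3.18e-13). Dpt, dermatopontin, a matrix protein, had 21 counts in all CrOE libraries against 3298 (164-fold lower, 95% interval 107 to 265). Gdpd2, a glycerophosphodiester phosphodiesterase, had 5 counts against 2604 (543-fold lower, 95% interval 233 to 1675). Mpeg1, which encodes perforin-2 of macrophages, fell from 61.97, 35.8 and 49.1 to 0.159, 0.204 and 0.534 CPM (log2 fold change -7.31) and Col23a1, a transmembrane collagen, from 79.98, 83.8 and 77.7 to 0.412, 1.02 and 0.505 (log2 fold change -6.94). Exons of Gdpd2 overlap a gene on the opposite strand.

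Cell-cycle genes were mostly higher with CrOE than with shCr EVs. Of 26 DNA replication genes, 21 were higher and 3 lower (median 0.65). Of 23 mitosis genes, 20 were higher and 1 lower (median 0.81), beside 36.9% and 37% of all genes tested. Mcm2, part of the replicative helicase, rose from 32.6, 34.4 and 36.5 to 148, 165 and 158 CPM (log2 fold change 2.18, SE 0.065, adjusted p = 8.36e-12), and Cdc6, which loads that helicase, from 0.388, 0.737 and 0.636 to 9.80, 9.08 and 8.73 (log2 fold change 3.94, SE 0.2, adjusted p = 1.02e-09). Among mitosis genes, Top2a, a topoisomerase, went from 20.8, 21.6 and 21.1 to 40.4, 36.3 and 34.4 CPM (log2 fold change 0.81) and Mki67, the Ki-67 proliferation marker, from 14.2, 15.4 and 14.8 to 28.3, 25.5 and 21.9 (log2 fold change 0.77, SE 0.12, adjusted p = 6.82e-05). Ccnb2, a mitotic cyclin, was the member that fell, from 6.03, 6.76 and 6.73 to 4.85, 5.18 and 4.32 CPM (log2 fold change -0.45). The untreated libraries held more of these 3 mitotic transcripts than either end, with means of 88.9 CPM for Mki67, 102 for Top2a and 26.8 for Ccnb2. The letters TTTGAA, part of the cell-cycle element of mitotic promoters, were in 8 of 19 matched mitosis promoters (42.1%) against 18.3% of all, and the E2F letters TTTCCCGC in 2 of 21 replication promoters (9.52%) against 1.03%.

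In a list of p53 targets and cyclin-dependent kinase (CDK) inhibitors, not all of them brakes on the cycle, 16 of 21 were lower and 3 higher. Over all genes tested the shares were 37% and 36.9%, and the list median was -0.52. Cdkn1a, encoding the inhibitor p21, fell from 433, 434 and 418 to 195, 214 and 209.7 CPM (log2 fold change -1.05, SE 0.05, adjusted p = 5.86e-10), and Cdkn2c, encoding p18, from 96.4, 81.1 and 80.2 to 12.6, 12.7 and 12.3 (log2 fold change -2.78). Plk2, a p53-responsive kinase, rose from 141, 149 and 158 to 409, 458 and 440.1 CPM (log2 fold change 1.55) and Mdm2, the ligase that degrades p53, from 4221, 4100 and 4194 to 5103, 5261 and 5262 (log2 fold change 0.32). Exons of Cdkn1a overlap a gene on the opposite strand.

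Genes tied to vesicle uptake, named in the title of the series, were mostly lower with CrOE EVs. Of 30 tested members, 26 were lower and 3 higher (all genes tested: 37% and 36.9%), with a median of -1. Falls of at least 2-fold were seen in 15 (all genes tested: 18.6%). Lrp1, a large endocytic receptor, was at 1606, 1574 and 1560 CPM with shCr, 1828, 1853 and 1596 with shCon and 473, 428 and 349.6 with CrOE EVs (log2 fold change -1.92, SE 0.12, adjusted p = 1.19e-08). Cav1, caveolin-1, fell from 197, 178 and 190.2 to 56.5, 55.6 and 57.1 CPM (log2 fold change -1.74, SE 0.048, adjusted p = 4.34e-12), and Itgb3, an integrin subunit, from 39.7, 42.8 and 35.8 to 3.93, 4.80 and 3.88 (log2 fold change -3.23). The tetraspanins Cd81 and Cd9, which sit in vesicle membranes, fell by 1.46 and 1.24 on the log2 scale. Itgb1, the common integrin subunit, fell little, from 1098, 894 and 890.3 to 793, 831 and 771 CPM (log2 fold change -0.27), and Rab5a, the small GTPase of early endosomes, rose from 93.2, 66.1 and 69.1 to 109.9, 114 and 106 (log2 fold change 0.53, SE 0.11, adjusted p = 0.000519). These are transcript levels after 24 h of exposure, and uptake itself was not measured in these libraries. Exons of Cd81, Cd9 and Rab5a overlap genes on the opposite strand.

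The lysosome, where much of the cargo that cells take up is degraded, showed 18 of 22 genes lower and 3 higher. Over all genes tested the shares were 37% and 36.9%, and the list median was -0.82. Lamp1, a lysosomal membrane protein, fell from 3242, 2930 and 2918 to 1341, 1427 and 1339 CPM (log2 fold change -1.15, SE 0.053, adjusted p = 5.22e-10), and Tfeb, a transcription factor for lysosomal genes, from 6.17, 7.37 and 7.74 to 2.28, 2.15 and 2.08 (log2 fold change -1.71). Sqstm1, the autophagy receptor p62, rose from 1390, 1496 and 1497 to 2841, 3152 and 2964 CPM (log2 fold change 1.03, SE 0.059, adjusted p = 3.73e-09). NRF2, the regulator of antioxidant genes, has Sqstm1 among its targets. Its list was divided, with 12 of 21 higher and 7 lower (all genes tested: 36.9% and 37%) and a median of 0.18. Hmox1, heme oxygenase, rose from 338, 354 and 366 to 985, 1085 and 1064 CPM (log2 fold change 1.57, SE 0.058, adjusted p = 5.77e-11), and Gclc, which starts glutathione synthesis, from 33.6, 36.4 and 33.5 to 135, 137 and 136 (log2 fold change 1.98). The glutathione transferases split, with Gsta4 higher (log2 fold change 2.49) and Gstm1 lower (log2 fold change -2.80). Gstm1 shares 28.8% of its 31-base stretches with other genes, and exons of Lamp1 and Sqstm1 overlap genes on the opposite strand.

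Glycolysis and hypoxia genes were mostly higher, with 18 of 24 higher and 3 lower (all genes tested: 36.9% and 37%) and a median of 0.47. Hk2, hexokinase 2, rose from 37.6, 43.3 and 46.2 to 165, 180 and 169 CPM (log2 fold change 2.0, SE 0.088, adjusted p = 2.63e-10), and Slc2a1, the glucose transporter GLUT1, from 74.4, 76.6 and 74.2 to 275, 293 and 279.9 (log2 fold change 1.91), while Pkm, pyruvate kinase, was not called (log2 fold change -0.026, SE 0.074, adjusted p = 0.764). Targets of YAP and TEAD, which read cell stretch and stiffness, went both ways, with 5 of 18 higher and 10 lower. Over all genes tested these shares were 36.9% and 37%. The median of the YAP and TEAD targets was -0.21. Ankrd1 rose from 27.95, 30.1 and 32.6 to 77.2, 87.4 and 94.7 CPM (log2 fold change 1.51), and Axl, a receptor kinase, fell from 827, 812 and 859 to 267, 287 and 278 (log2 fold change -1.59). Pkm shares 34.7% of its 31-base stretches with other genes, and exons of Slc2a1 overlap a gene on the opposite strand.

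CRIPTO's own partners in Nodal and activin signalling were partly expressed, with 12 of 21 list members tested. Nodal, Tdgf1, its relative Cfc1, and Lefty1 had at most 3 counts in any library. Of the 12 tested, 2 were higher and 8 lower (all genes tested: 36.9% and 37%), with a median of -0.52. The ligand gene Inhbb, an activin subunit, fell from 71.1, 81.2 and 78.3 to 4.35, 4.65 and 4.24 CPM (log2 fold change -4.12, SE 0.071, adjusted p = 1.11e-13), and Fst, follistatin, which neutralises activins, fell from 68.5, 60.6 and 64.2 to 3.996, 3.78 and 4.61 (log2 fold change -3.96, SE 0.079, adjusted p = 3.38e-13). Both were far lower in every CrOE library than in any shCr library, where 74% of all genes tested showed no overlap. Gdf11, another ligand, fell from 57.5, 53.1 and 46.99 to 23.6, 23.4 and 22.97 CPM (log2 fold change -1.17), and Inhba, the other activin subunit, differed little, at 12.8, 12.6 and 12.4 against 10.5, 11.1 and 11.7 (log2 fold change -0.18). Its call was lost with DESeq2 (adjusted p = 0.0513), with no low-count filter (0.0979, edgeR), in a fit of only the groups compared (0.0568, edgeR), without shCr replicate 1, 2 or 3 (0.0541, 0.0642 and 0.051, edgeR) and without CrOE replicate 1 or 2 (0.128 and 0.0686).

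Among the receptors, Acvr1b, the type I receptor used by Nodal and activin, fell from 33.6, 36.7 and 36.6 to 20.1, 21.7 and 21.9 CPM (log2 fold change -0.75, SE 0.058, adjusted p = 8.12e-08), and the type II receptor Acvr2a rose from 35.8, 28.1 and 27.01 to 37.8, 38.7 and 37.6 (log2 fold change 0.33, SE 0.097, adjusted p = 0.00769). The low-level Acvr2b (log2 fold change -0.59, adjusted p = 0.0281 by edgeR) was no call without shCr replicate 2 (0.122), shCr replicate 3 (0.0661) or any 1 CrOE replicate (0.0513 to 0.0803). Of the SMAD proteins that carry the signal, Smad3 fell from 115, 132 and 126 to 66.3, 73.9 and 71.6 CPM (log2 fold change -0.82, SE 0.06, adjusted p = 4.49e-08) and Smad4 rose from 81.1, 79.2 and 72.8 to 95.6, 99.3 and 92.1 (log2 fold change 0.30). Smad2 was not called (log2 fold change 0.084, adjusted p = 0.237), nor was the kinase Src (log2 fold change -0.092, adjusted p = 0.249), but without shCr replicate 1 both were calls by edgeR (0.0412 and 0.00388). Gpc1, glypican-1, a surface proteoglycan that CRIPTO binds, fell from 109.9, 123 and 115 to 82.4, 90.4 and 80.8 CPM (log2 fold change -0.46). Exons of Acvr2a, Fst and Gpc1 overlap genes on the opposite strand.

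Target genes of TGF-beta signalling did not move as one. Of 15 tested, 6 were higher and 7 lower, with a median of -0.14. This split was near that of all genes tested, with 36.9% higher and 37% lower. The rises were led by feedback inhibitors: Pmepa1, which sequesters SMADs, Skil, which represses them, and Smad7, which blocks the receptor, had log2 fold changes of 2.48, 2.39 and 2.06. The falls were led by Id3, an inhibitor of differentiation, at 20.8, 22.8 and 23.03 CPM with shCr and 4.35, 4.71 and 4.21 with CrOE EVs (log2 fold change -2.33, SE 0.085, adjusted p = 4.87e-11), and Ltbp2, a matrix protein related to the latent TGF-beta binding proteins, at 116, 152 and 142 CPM with shCr and 27.5, 28.8 and 31.5 with CrOE EVs (log2 fold change -2.22). The SMAD letters GTCTAGAC were in none of the 6 matched promoters of this list and in 0.2% of all promoters.

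The position of the shCon level between the ends was described for all 10552 calls. The group mean of the shCon libraries lay between the group means of the ends in 6978 calls (66.1%), beyond the shCr end in 3470 (32.9%) and beyond the CrOE end in 104 (0.986%). The mean of the untreated libraries, which received no EVs, lay between the ends in 51.4% of the calls. The shCon and shCr comparison shares libraries with the CrOE and shCr comparison, so these shares are a description and not a test. A stricter reading asked that shCon differ by edgeR from both ends, in the direction of the CrOE and shCr difference. By that rule shCon was between and apart from both ends in 839 calls (7.95%), at the shCr end in 8575 (81.3%), at the CrOE end in 121 (1.15%), beyond the shCr end in 167 (1.58%) and beyond the CrOE end in 18 (0.171%), and 832 (7.88%) could not be placed. Leaving out any 1 shCon replicate left 417 to 458 calls between and apart, and leaving out shCr replicate 1 gave 975. Not being called between shCon and shCr does not show that these levels were equal.

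Among the 4223 calls with at least a 2-fold difference, shCon was nearer to shCr than to CrOE on the log2 scale in 4100 (97.1%). On a scale where 0 is the shCr level and 1 the CrOE level, the median position was 0.0779, with quartiles of -0.00486 and 0.175. The 3 shCon libraries taken singly had medians of 0.0791, 0.0761 and 0.0804. Between and apart by the edgeR rule were 628 of these (14.9%), and 3369 (79.8%) were at the shCr end. Among all calls, genes lower with CrOE EVs were placed between and apart in 10.9% of cases (579 of 5289) and genes higher in 4.94% (260 of 5263), and this contrast was not tested.

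**Figure D3:**
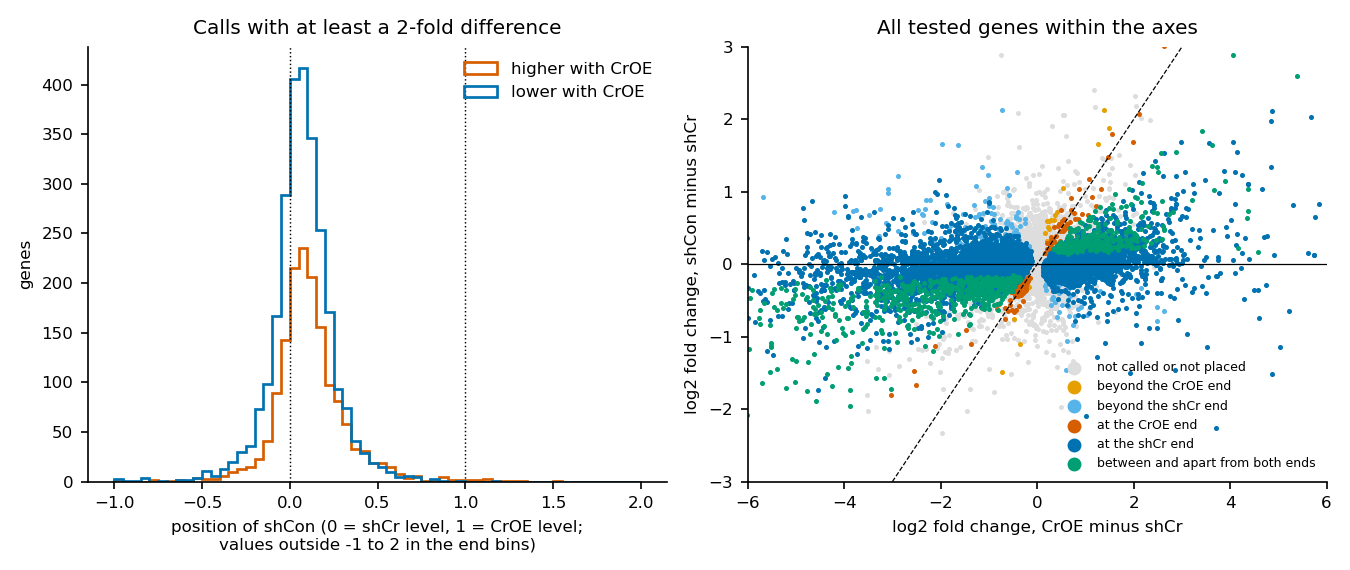
Left: number of genes by the position of the shCon mean on the log2 scale from the shCr level (0) to the CrOE level (1), for calls with at least a 2-fold difference, drawn apart for genes higher and lower with CrOE EVs. Right: log2 fold change of shCon minus shCr against CrOE minus shCr for tested genes within the axes, coloured by the class of the shCon level; the dashed line marks shCon at the CrOE level and the horizontal line shCon at the shCr level. Most genes lie near the horizontal line, with the median position at 0.0779.

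In several of the groups with large differences shCon lay mostly at the shCr end, as it did in 81.3% of all calls. It was there in 23 of 27 ER folding genes, a share near that of all calls. It was also there in 30 of 32 interferon-stimulated genes and all 13 class I presentation genes. Leaving out single libraries gave 19 to 25, 27 to 30 and 12 to 13, and without shCr replicate 1 the ER folding genes had 19 at the shCr end and 7 between and apart, against 3 with it. In other groups with large differences fewer called members lay there, with 15 of 25 cholesterol genes and 4 of 9 complement genes. The exceptions among the large ER rises were small shifts: Hyou1, at 142, 147 and 146 CPM in the shCon libraries, and Pdia4, at 182, 176 and 179, were placed between and apart with positions of 0.036 and 0.056. Neither kept that place without any 1 shCon replicate, shCr replicate 2 or 3, or CrOE replicate 3. In all, Hyou1 lost it in 8 and Pdia4 in 6 of 16 alternatives. The adjusted p of shCon minus shCr was up to 0.145 and 0.102 over all single-library omissions (edgeR). Ifit2, another interferon-induced RNA-response gene, was between and apart, at 251, 179 and 249.8 CPM with shCr EVs, 135, 151 and 145 with shCon EVs and 32.7, 36.9 and 35.6 with CrOE EVs. Among amino acid genes, Trib3, a pseudokinase induced by ATF4 and CHOP, was graded upward, at 52.5, 52.3 and 61.1 CPM with shCr EVs, 88.9, 89.2 and 92.98 with shCon EVs and 299, 318 and 312 with CrOE EVs. Both genes kept their place in all 16 alternatives examined.

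With all libraries in the fit, TGF-beta target genes had the highest share of graded members among the 24 lists, with 7 of 13 called members between and apart (5 to 7 when single libraries were left out). Of the other called members, 3 lay beyond the shCr end, 2 beyond the CrOE end and 1 at the shCr end. So 5 of the 13 did not follow the order of donor CRIPTO with all libraries in the fit. Leaving out single libraries gave 3 to 4 beyond the shCr end, 1 to 2 beyond the CrOE end and 1 to 3 at the shCr end. Pmepa1 was at 29.2, 32.9 and 35.1 CPM with shCr EVs, 83.6, 83.5 and 80.2 with shCon EVs and 176, 184 and 183 with CrOE EVs, a position of 0.54. Skil was at 16.2, 14.5 and 13.8 CPM with shCr EVs, 42.8, 36.2 and 35.1 with shCon EVs and 79.4, 83.1 and 69.97 with CrOE EVs (position 0.57). In both genes the groups followed the order of donor CRIPTO without overlap, as did 22.5% of all calls in either direction. The untreated means of 36.8 and 21.8 CPM lay near the shCr level. Ctgf, a matricellular growth factor, was at 6.66, 7.88 and 8.43 CPM with shCr EVs, 14.7, 16.7 and 15.8 with shCon EVs and 26.1, 28.98 and 30.9 with CrOE EVs (position 0.54). Id3 was graded downward, with 9.55, 10.6 and 10.4 CPM in the shCon libraries (position 0.48), and lay far below its untreated mean of 96.9 in all EV groups. These 4 genes were between and apart in all 16 alternatives. Smad7 was at 5.46, 5.93 and 5.99 CPM with shCr EVs, 7.44, 7.20 and 7.13 with shCon EVs and 23.98, 25.4 and 23.3 with CrOE EVs. It lay closer to the shCr end (position 0.16) and lost its place without any 1 shCon replicate. Its adjusted p of shCon minus shCr was up to 0.0784 over all single-library omissions (edgeR). The names of these targets were in view when the list was made, so their count is no independent evidence.

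**Figure D4:**
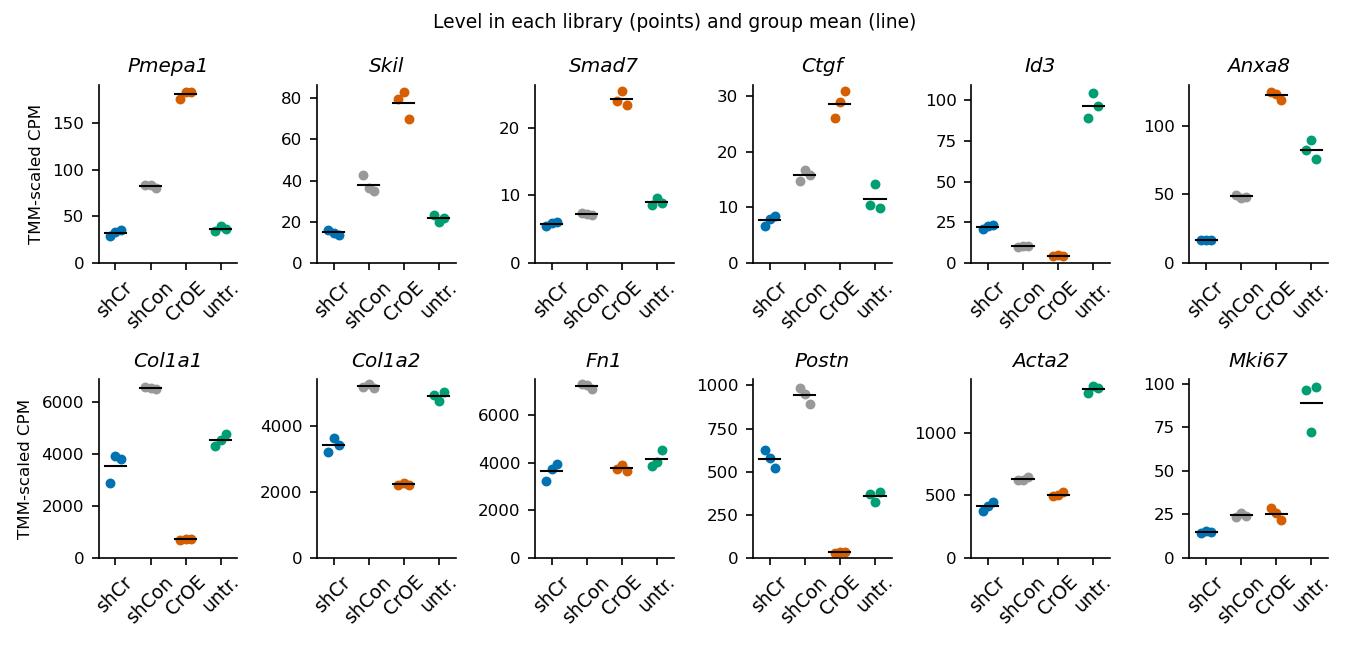
TMM-scaled CPM of 12 genes in each library (points) with the group mean (line), in the order shCr, shCon, CrOE and untreated. Pmepa1, Skil, Smad7, Ctgf and Anxa8 step up from shCr through shCon to CrOE and Id3 steps down, while Col1a1, Col1a2, Fn1, Postn and Acta2 are highest in shCon among the EV groups and Mki67 is at 23.5, 25.5 and 23.9 CPM in shCon and 28.3, 25.5 and 21.9 in CrOE.

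Graded genes outside that pathway included Anxa8, an annexin that binds membranes, at 16.4, 16.7 and 16.7 CPM with shCr EVs, 49.9, 47.6 and 47.8 with shCon EVs and 125, 123 and 119 with CrOE EVs (position 0.54). Col5a2 was the graded collagen, at 1331, 1352 and 1327 CPM in the shCon libraries between the shCr and CrOE values given above (position 0.48). On the falling side, Apod, Col23a1, Lyz2, Cryab and Cdkn2c were graded in all 16 alternatives, with positions of 0.16, 0.10, 0.13, 0.17 and 0.15, all nearer to shCr. Of the cholesterol genes, 10 of 25 were between and apart and 15 at the shCr end (6 to 11 and 14 to 19 when single libraries were left out). Of the vesicle uptake genes, 6 of 29 called members were between and apart, but 1 to 5 were when a single library was left out. Complement and lysosomal genes, with 4 of 9 and 5 of 21, fell to 0 between and apart in at least 1 such omission.

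Mitosis genes were spread over several positions, with 9 of 21 called members between and apart, 6 at the shCr end and 4 at the CrOE end. Top2a was at 28.02, 30.6 and 30.4 CPM and Ccnb1, a mitotic cyclin, at 14.5, 16.5 and 16.6 CPM in the shCon libraries, each between its ends. Ccnb1 stood at 13.1, 11.4 and 11.4 CPM with shCr and 27.1, 25.4 and 24.4 with CrOE EVs, and it shares 27.7% of its 31-base stretches with other genes. Mki67, at 23.5, 25.5 and 23.9 CPM in the shCon libraries, could not be told from the CrOE level (position 0.93) in any of the 16 alternatives. Masp1, a complement protease, and Etv1, an ETS transcription factor, were likewise at the CrOE end throughout. Masp1 was at 42.3, 42 and 40.4 CPM with shCr EVs, 28.2, 30.2 and 29.9 with shCon EVs and 27.4, 27.5 and 29.8 with CrOE EVs, and Etv1 at 21.9, 17.8 and 17.4 CPM with shCr EVs, 11.9, 12.2 and 12.4 with shCon EVs and 11.96, 14.1 and 11.4 with CrOE EVs.

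In part of the matrix genes shCon lay outside the ends. Of the called members, 5 of 17 collagens and 9 of 27 other matrix proteins were beyond the shCr end (4 to 6 and 7 to 9 when single libraries were left out), beside 1.58% of all calls. Col1a1 was at 6590, 6565 and 6516 CPM with shCon EVs, above each shCr and each CrOE library, and Col1a2 at 5181, 5266 and 5162. Col3a1, the fibrillar collagen of soft tissue, was at 834, 901 and 757 CPM with shCr EVs, 1320, 1322 and 1272 with shCon EVs and 354, 334 and 327 with CrOE EVs. In all 3 chains the shCon libraries exceeded every other EV library. Fbln5, fibulin-5, an elastic fibre protein, was at 132, 131 and 136 CPM with shCr EVs, 424, 412 and 410.4 with shCon EVs and 39.01, 42.9 and 45.6 with CrOE EVs. Lox, which crosslinks collagen and elastin, was at 1927, 1763 and 1845 CPM with shCr EVs, 2768, 2632 and 2577 with shCon EVs and 831, 911 and 877 with CrOE EVs. Postn was at 988, 953 and 895 CPM and Bgn at 3722, 3669 and 3786 in the shCon libraries. In these 7 genes the order of the EV groups was shCon, shCr, CrOE from high to low, in all 16 alternatives, and not the order of donor CRIPTO. Olfml3, a secreted matrix protein, and Tagln showed the same order, as did the chemokine Cxcl12, with 58.9, 53.5 and 55.6 CPM of Olfml3, 100.5, 99.5 and 101 of Tagln and 1051, 1026 and 1022 of Cxcl12 in the shCon libraries.

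A few genes lay beyond an end in other ways. Atf3, a stress-induced transcription factor, Dusp4, a MAP kinase phosphatase, and Gsta4 rose with CrOE EVs and were lower with shCon than with shCr EVs: Atf3 was at 23.7, 22.97 and 22.9 CPM with shCr EVs, 15.03, 14.4 and 14.9 with shCon EVs and 142, 156 and 135 with CrOE EVs, and Dusp4 at 32.9, 36.9 and 35.3 CPM with shCr EVs, 23.2, 22.05 and 24.5 with shCon EVs and 189, 213 and 191 with CrOE EVs. Beyond the CrOE end in all 16 alternatives were Acta2, Cpt1a, which imports fatty acids into mitochondria, and Twist2, a mesenchymal transcription factor. Acta2 was at 619.5, 625 and 651 CPM with shCon EVs. Cpt1a was at 74.8, 82.8 and 75.5 CPM with shCr EVs, 133, 124 and 126 with shCon EVs and 106, 105 and 100.4 with CrOE EVs, and Twist2 at 113, 113 and 122 CPM with shCr EVs, 67.1, 68.9 and 70.6 with shCon EVs and 87.5, 78.2 and 85 with CrOE EVs. In Acta2 and Cpt1a the shCon libraries were highest of the 3 EV groups, and in Twist2 they were lowest. Exons of Ltbp2, Lox and Twist2 overlap genes on the opposite strand.

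**Figure D5:**
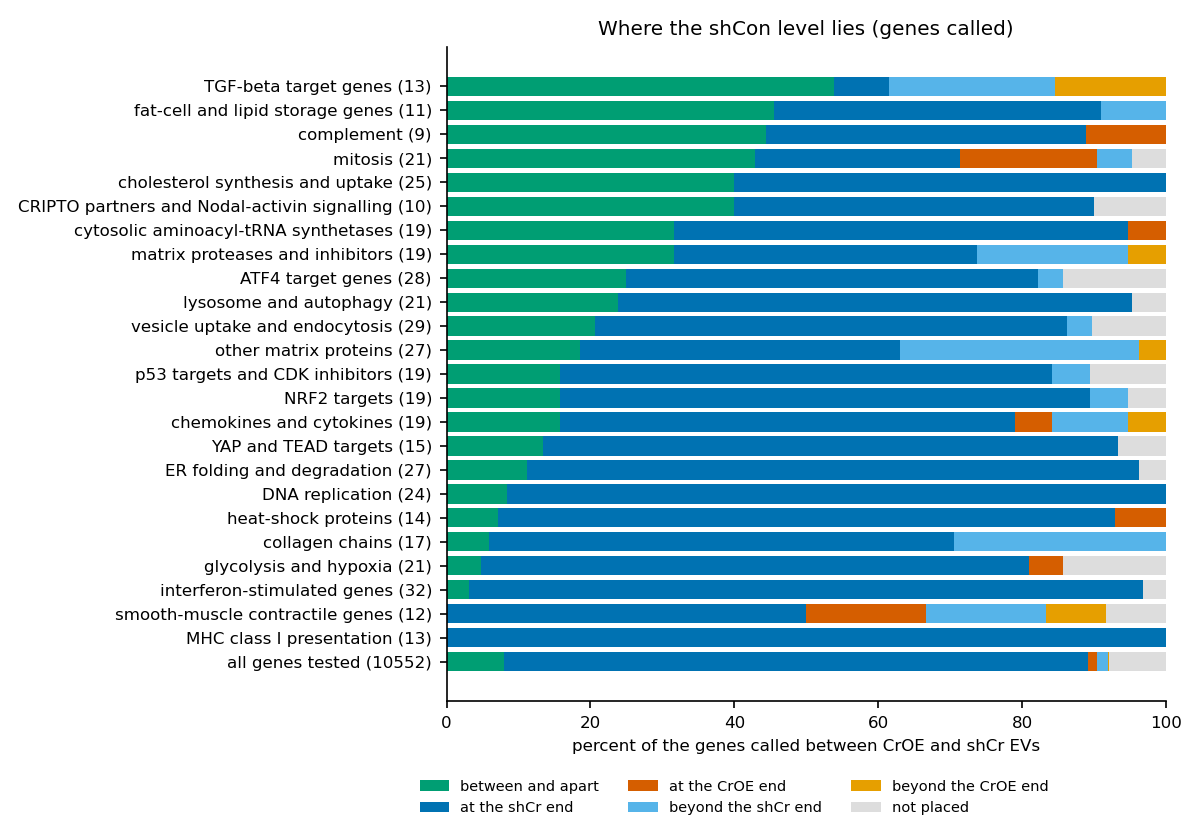
Share of the genes called between CrOE and shCr EVs, in each of 24 lists and over all genes tested, by where the shCon level lies; the number of called genes is in parentheses. Over all calls 81.3% are at the shCr end and 7.95% between and apart, while 7 of 13 TGF-beta target genes are between and apart and 5 of 17 collagens lie beyond the shCr end. Lists were chosen with earlier results of these data known, so their order is no independent evidence.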

How the data were processed

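Poly(A) RNA of 12 libraries of 3T3 cells was sequenced after directional library preparation, per the labels' protocols. Estimated counts for each symbol were deposited in 1 table, and featureCounts and mm39 are named in the submitters' processing notes. The aligner, annotation and use of strand are not given in the sources used here, and 39.8% of its values are not whole numbers. Counts had been planned for, and the deposited estimated counts were rounded. The 27 rows that bear dates in place of symbols stayed in the fit and are not named. The 3 columns named for CRIPTO alone were taken as CrOE.

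All 12 libraries entered 1 edgeR (version 4.0.16, R 4.3.3) quasi-likelihood fit with 4 groups, TMM scaling and edgeR's filter on low counts, leaving 8 residual degrees of freedom and a biological coefficient of variation of 8.90%. The fit was also run on simulated data in which few genes changed and shCon lay midway. Most genes were called here, so that run cannot show how scaling and calling perform in these data. P-values were adjusted over all genes tested. Intervals of ratios of summed counts are exact at 95% and cover counting error only. Per-gene shared sequence was measured as 31-base stretches in GENCODE M21 transcripts.

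Genes were named by rule: Tdgf1, the 8 largest rises and falls at a mean log2 CPM of at least 4 without overlap, each list's largest rise and fall and its 2 highest-expressed members, all tested CRIPTO partners, and the 3 largest rises and falls of each shCon position. Skil, Smad7, Ctgf and other genes named were chosen after their values were seen. Members and lists were chosen with earlier results of these data known. Alternatives were other scalings, DESeq2 1.42.0, other low-count filters, a replicate block, fewer groups in the fit, a 2-fold threshold and leaving out each library. Some genes are not reported here.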

Additional observations from a re-analysis of the deposited data

How the results depend on the processing

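Calls between CrOE and shCr EVs numbered 9434 to 10832 under the other scalings, DESeq2, the other low-count filters and a fit of only the groups compared, and 10066 to 11003 when single libraries were left out. No gene called in both the fit described above and an alternative was called in opposite directions (not compared for the fit of only the groups compared). Requiring a 2-fold difference left 4223 calls, 1565 higher and 2658 lower, with shCon at the shCr end in 3369, at the CrOE end in 17, beyond the shCr end in 69, beyond the CrOE end in 3 and not placed in 137. Without single libraries, the count between and apart from both ends was 417 to 975, with 458, 417 and 433 without shCon replicates 1, 2 and 3. The other counts ranged from 60 to 143 at the CrOE end, 96 to 188 beyond the shCr end and 10 to 20 beyond the CrOE end, and the cause was not tested. The median position of shCon was 0.0758 to 0.0913 without single libraries, 0.0811 with no low-count filter and 0.0742 with at least 10 counts in every library. Among genes that were not called, the log2 fold change of Fn1 ranged from -0.0277 to 0.1105 and the log2 fold change of Pkm from -0.107 to 0.0315 when single libraries were left out, with Pkm at 0.0019 without shCr replicate 2 and 0.0127 without CrOE replicate 1. Deviations from the group mean correlated at r = -0.0176, -0.127 and 0.233 between same-numbered CrOE and shCr libraries. Between differently numbered ones r was -0.265 to 0.273. With 3 libraries in a group these values cannot decide whether the numbers pair the libraries. With the replicate block there were 10677 calls, 5375 higher and 5302 lower, with shCon between and apart in 862 and at the shCr end in 8675. Differences at levels near 3 counts were not detectable at this depth.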

Other observations

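Of 4 tested endothelial markers, 3 were higher and 1 was lower with CrOE than with shCr EVs (all genes tested: 36.9% and 37%). Vwf, von Willebrand factor, stood at 17.9, 15.2 and 14.99 CPM in the CrOE libraries and 3.07, 4.61 and 3.84 in the shCr libraries (log2 fold change 2.06, SE 0.15, adjusted p = 3.72e-08, edgeR), with 4.58, 4.28 and 4.86 in the shCon libraries. Tek, the angiopoietin receptor, had 120 counts in the CrOE libraries together against 12 (9.59-fold higher, 95% interval 5.29 to 19.1, counting error only). Kdr, a VEGF receptor, was the member called lower, at 0.381, 0.407 and 0.421 CPM with CrOE and 0.740, 0.545 and 1.01 with shCr EVs (log2 fold change -0.93, SE 0.28, adjusted p = 0.00973, edgeR), and it was no call without shCr replicate 3 (adjusted p = 0.0751). Cldn5, the endothelial claudin, had 0 counts in every library. At the far ends of the scale, 11 calls were higher and 10 lower by at least 256-fold, and the size of such folds rests on few counts at the low end.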
